A study of Mus musculus with 8 samples.

Results

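The 10 genes that answer to glucocorticoids or to FOXO transcription factors were followed in tumor-associated macrophages (TAMs) of mice given thiostrepton. They were Nr3c1, Tsc22d3, Fkbp5, Klf9, Sgk1, Fbxo32, Foxo1, Foxo3, Txnip and Errfi1, 10 of the 23413 gene symbols counted. The genes were chosen by name, with earlier results of the same counts known, so their values in the comparisons are a description and not independent evidence. TAMs were sorted as CD45+F4/80+CD11b+Gr-1- cells on day 18 from subcutaneous B16F10 tumors, a mouse melanoma line, in male C57BL/6 mice of 8 to 10 weeks. All mice carried tumors and were dosed on days 6 and 12, and each mouse gave 1 library. The 2 control mice received DMSO, the vehicle, 4 mice received thiostrepton, a thiopeptide antibiotic, by intraperitoneal injection (I.P.), and 2 mice received it by paratumor subcutaneous injection at 20 mg/kg (S.C.). The I.P. dose of these 4 mice and the route of the DMSO mice are not given in the sources used here, so route and dose cannot be told apart.

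Glucocorticoids enter the cell and bind the glucocorticoid receptor, the product of Nr3c1, which moves to the nucleus and binds palindromic elements near its target genes. Tsc22d3 (GILZ), Fkbp5, Klf9, Sgk1 and Per1 are among the targets induced in many cell types, and in macrophages glucocorticoids restrain inflammatory genes and raise scavenger receptors such as Cd163. FOXO factors, among them the products of Foxo1 and Foxo3, are held in the cytoplasm when AKT phosphorylates them under growth factor signaling, and enter the nucleus to induce genes of atrophy, stress resistance and growth restraint when that signal falls. Both pathways meet at several genes, since Fbxo32 (atrogin-1), Klf9, Sgk1, Tsc22d3 and Txnip have been described as targets of one or both.

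Promoter windows from RefSeq (GRCm38.p6), each with 250 bases before and 50 after an annotated start site, were searched on both strands for 3 motifs. These were the glucocorticoid half-site AGAACA, the full palindromic element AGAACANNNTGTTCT, which contains 2 half-sites, and the FOXO element GTAAACA. Windows were found for 8 of the 10 genes, 16 windows in all, with none for Nr3c1 and Fbxo32. The windows below are those that held a full element or a FOXO element, with the match in capitals, written 5′ to 3′ on the gene's own + strand. They are the Sgk1 window at chr10:21993640-21993939, the Klf9 window at chr19:23140976-23141275 and the Txnip window at chr3:96557707-96558006.
Sgk1: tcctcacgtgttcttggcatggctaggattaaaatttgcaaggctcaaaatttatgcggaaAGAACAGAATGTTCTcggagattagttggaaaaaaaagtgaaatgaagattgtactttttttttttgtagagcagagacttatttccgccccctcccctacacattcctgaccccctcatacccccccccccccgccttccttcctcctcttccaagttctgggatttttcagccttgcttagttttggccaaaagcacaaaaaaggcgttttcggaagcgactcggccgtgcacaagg
Klf9: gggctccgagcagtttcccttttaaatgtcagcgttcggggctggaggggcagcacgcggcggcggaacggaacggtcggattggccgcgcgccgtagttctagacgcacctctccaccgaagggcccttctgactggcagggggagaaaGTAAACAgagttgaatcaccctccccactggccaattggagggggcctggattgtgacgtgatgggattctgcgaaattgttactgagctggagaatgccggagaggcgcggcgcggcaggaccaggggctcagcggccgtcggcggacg
Txnip: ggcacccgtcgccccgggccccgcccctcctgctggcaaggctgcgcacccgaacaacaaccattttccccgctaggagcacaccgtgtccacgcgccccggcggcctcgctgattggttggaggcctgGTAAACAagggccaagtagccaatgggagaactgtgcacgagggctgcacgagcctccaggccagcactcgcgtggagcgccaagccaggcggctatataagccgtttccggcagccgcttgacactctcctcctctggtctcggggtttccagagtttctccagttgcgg

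The full palindromic element stood 189 bases upstream of 1 of the 6 annotated Sgk1 start sites, and only 3 of 32851 windows of the same length (0.00913%) held one. The same window had 3 half-sites, 2 of them the arms of the palindrome, and 2 other Sgk1 windows had 1 each. A half-site lay 185 bases upstream of 1 of the 3 Tsc22d3 start sites, where 19% of all windows held at least 1. The FOXO element was found 100 bases upstream of the Klf9 start and 121 bases upstream of the Txnip start, against 3.65% of all windows. None of the 3 motifs was in the windows of Fkbp5, Foxo1, Foxo3 or Errfi1. A match in these letters is a description of the window, not a bound site.

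**Figure D1:**
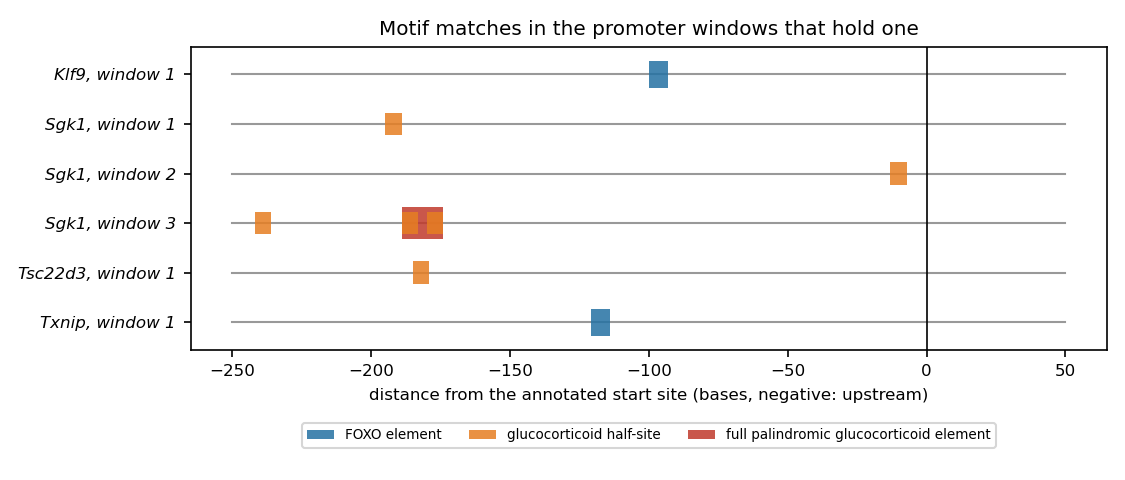
Positions of motif matches in the 6 promoter windows that held one, as distance in bases from the annotated start site (negative values are upstream). Blocks mark the half-site, the full palindromic element and the FOXO element, and the full element is seen in 1 Sgk1 window, 189 bases upstream.

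The libraries held 14127506 to 17577466 counts each, and 3 counts, taken as the floor, were 0.168 to 0.217 CPM, the counts scaled to a library's TMM-adjusted total. The floor covers counting error only. Macrophage markers were abundant in every library, with a summed level of 11 markers between 13072 and 21179 CPM. I.P. mouse 1 stood apart, with a Pearson correlation across genes of 0.793 to 0.884 with the other mice, and S.C. mice 1 and 2 had a correlation of 0.768 with each other, the lowest of any pair. These samples are separate mice, and values are given below with and without the libraries that stand apart where they matter. In sorted populations, fewer cells of a type and less RNA per cell cannot be told apart.

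In DMSO mice the genes covered a wide range of levels. Per kilobase of annotated exon the highest was Txnip at 36.2 CPM per kb, followed by Tsc22d3 at 35.3 and Sgk1 at 32.6. The 2 DMSO mice differed more in Txnip (58.2 and 167.8 CPM) than these 3 genes did from each other, so their order is not resolved. Errfi1 (11.1 CPM per kb) and Nr3c1 (9.51) came next, and Fkbp5 (1.80), Fbxo32 (1.72), Foxo1 (1.36), Klf9 (0.870) and Foxo3 (0.260) were lower.

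**Figure D2:**
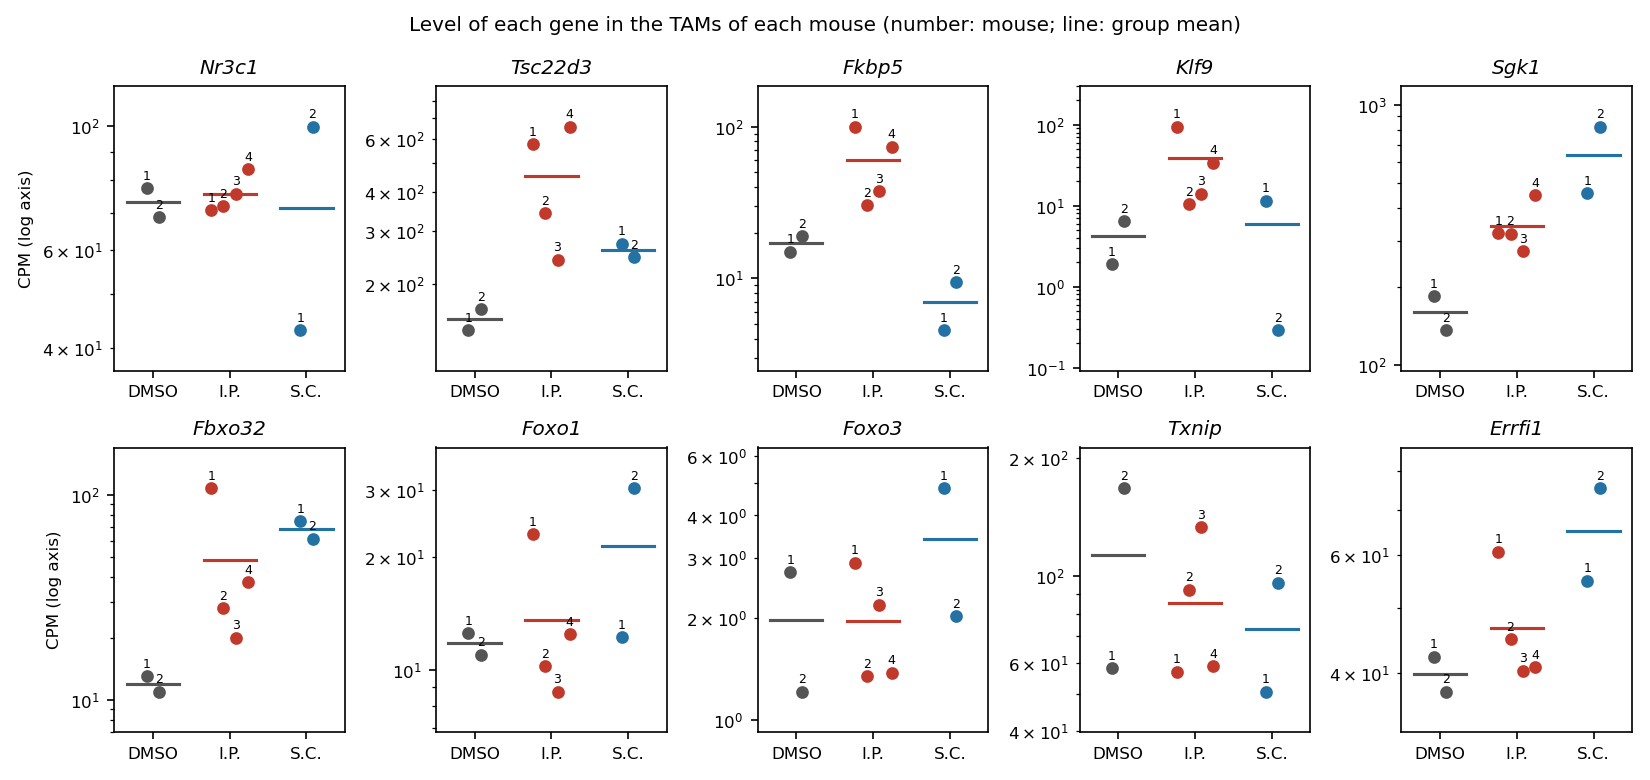
Level of each of the 10 genes in CPM (log axis, scaled for each gene) in the TAMs of each mouse, with the number beside a point naming the mouse and the line giving the group mean. For Tsc22d3, Fkbp5, Klf9, Sgk1 and Fbxo32 all 4 I.P. points lie above both DMSO points, and for Fkbp5 both S.C. points lie below them.

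The genes fell into 2 patterns. A gene is called here at an unadjusted P under 0.05 in edgeR's quasi-likelihood test and a difference of 2-fold or more. With I.P. thiostrepton, 5 of the 10 genes were called higher, namely Tsc22d3, Fkbp5, Klf9, Sgk1 and Fbxo32. Nr3c1, Foxo1, Foxo3, Txnip and Errfi1 were not called. With S.C. thiostrepton, Sgk1 and Fbxo32 were called higher, while Fkbp5 was below its level in every DMSO and I.P. mouse. In I.P. against DMSO mice 1.53% of all genes tested were called higher and 0.468% lower, beside 5 and 0 of the 10 genes. In all 4 I.P. mice those 5 genes were above both DMSO mice, and none of the 10 was below them, where 7.29% and 6.88% of all genes did so. The median log2 fold change of the 10 genes was 0.65, against 0.02 for all genes tested. Tsc22d3 was called in 14 of 14 other settings, whereas Fkbp5, Klf9 and Fbxo32 lost the call without DMSO mouse 1, and Sgk1 and Fbxo32 lost it without DMSO mouse 2. After Benjamini-Hochberg adjustment in edgeR's quasi-likelihood test 0 genes passed 0.05 in any of the 3 comparisons, while 418, 632 and 1049 genes had an unadjusted P under 0.05 in I.P. against DMSO, S.C. against DMSO and S.C. against I.P. DESeq2 had 19, 107 and 234 genes with an adjusted p under 0.05, and edgeR's likelihood ratio test 10, 179 and 265. Because of how the genes were chosen nothing is read from these counts.

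Nr3c1, on chromosome 18 from 39410545 to 39519421 on the minus strand of GRCm38, encodes the receptor itself. Its level was 77.5 and 68.7 CPM in DMSO mice, 70.7, 71.9, 75.7 and 83.6 CPM in I.P. mice, and 43.1 and 99.7 CPM in S.C. mice. The I.P. values overlapped the DMSO values, with only I.P. mouse 4 above both, and the 2 S.C. mice fell on either side of all other mice. The log2 fold change was 0.04 (standard error 0.21, 95% interval -0.43 to 0.51) in I.P. against DMSO mice, so a change of 2-fold in the receptor's transcript lay outside the interval. In S.C. mice the interval was wider, -1.19 to 1.12, and held changes of 2-fold in either direction, with a log2 fold change of -0.03, which was 0.44 without S.C. mouse 1 and -0.79 without S.C. mouse 2.

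Tsc22d3 (GILZ, a leucine zipper protein that restrains inflammatory signaling) is at 140539528 to 140600659 of chromosome X. Its level was 141.3 and 165.3 CPM in DMSO mice, 577.1, 342.4, 240.7 and 657.1 CPM in I.P. mice, and 271.6 and 245.1 CPM in S.C. mice. Every treated mouse was above both DMSO mice by either route. The means were 153.3 ± 16.9 CPM (SD, n = 2) with DMSO, 454.3 ± 195.2 CPM (SD, n = 4) with I.P. and 258.4 ± 18.8 CPM (SD, n = 2) with S.C. thiostrepton. The log2 fold change was 1.56 ± 0.41 (SE, adjusted p = 0.98 in edgeR) by I.P. and 0.75 ± 0.30 (SE, adjusted p = 0.902 in edgeR) by S.C., which is below 2-fold.

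Fkbp5, a co-chaperone that lowers the receptor's affinity for hormone and is itself induced by it, is at 28399094 to 28517527 of chromosome 17. Its level was 14.98 and 19.05 CPM in DMSO mice and 99.9, 30.3, 37.7 and 73.9 CPM in I.P. mice. With 4.55 and 9.46 CPM, the 2 S.C. mice had the lowest values of the 8. The 3 groups did not overlap. The log2 fold change was 1.82 ± 0.50 (SE, adjusted p = 0.98 in edgeR) by I.P. and -1.28 ± 0.60 (SE, adjusted p = 0.98 in edgeR) by S.C., and the second did not pass the P threshold. Without S.C. mouse 2 the S.C. value was called, at -1.93.

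Klf9, a zinc finger transcription factor that is an early receptor target, lies on chromosome 19 from 23141226 to 23168134. The counts were 28 and 112 in DMSO mice, 1494, 169, 252 and 568 in I.P. mice, and 175 and 4 in S.C. mice. In CPM these were 1.91 and 6.47, then 94.4, 10.3, 14.1 and 34.1, then 11.5 and 0.289. All 4 I.P. mice exceeded both DMSO mice, I.P. mouse 1 the furthest, while the S.C. mice lay one above and one below. The log2 fold change by I.P. was 3.17 ± 1.01 (SE), the 9th largest rise among the 9277 genes that averaged 5 CPM or more, and it was 2.19 without I.P. mouse 1. By S.C. it was 0.50 with a standard error of 1.55, and its sign was not settled: it was -3.84 without S.C. mouse 1 and -0.14 without DMSO mouse 1, and also below 0 in both fits with a block, but 1.42 without S.C. mouse 2.

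Sgk1, a kinase of the AKT family that glucocorticoids induce and that can phosphorylate FOXO factors, is at 21882184 to 21999903 of chromosome 10. Its level was 183.4 and 136.0 CPM in DMSO mice, 320.5, 319.0, 272.8 and 448.8 CPM in I.P. mice, and 457.5 and 822.3 CPM in S.C. mice. The 3 groups did not overlap, in the order DMSO, I.P., S.C. The log2 fold change was 1.08 ± 0.27 (SE, adjusted p = 0.98 in edgeR) by I.P. and 2.0 ± 0.41 (SE, adjusted p = 0.747 in edgeR) by S.C. It is the gene whose promoter window held the full palindromic element printed above. Without I.P. mouse 4 or without DMSO mouse 2 its I.P. call was lost, with a log2 fold change of 0.88 in the latter case.

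Foxo1 and Foxo3, the 2 FOXO factors of the set, gave no call in any comparison. Foxo1, on chromosome 3 from 52268336 to 52353221, was at 12.5 and 10.97 CPM in DMSO mice, 22.9, 10.2, 8.74 and 12.4 CPM in I.P. mice, and 12.2 and 30.4 CPM in S.C. mice. In each treated group 1 mouse was high and the others were near the DMSO level, and without S.C. mouse 1 Foxo1 was called higher by S.C. (1.36). Foxo3, on chromosome 10 from 42181841 to 42276755, had few reads, with 40 and 21 counts in DMSO mice, 46, 22, 39 and 23 in I.P. mice and 73 and 28 in S.C. mice. Its log2 fold change was -0.01 ± 0.64 (SE) by I.P. and 0.80 ± 1.01 (SE) by S.C., intervals of -1.47 to 1.45 and -1.72 to 3.31, which leave changes of 2-fold in either direction undetected. The activity of FOXO proteins is set by phosphorylation and location, which transcript levels do not measure.

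Fbxo32 (atrogin-1, a ubiquitin ligase subunit and the best known FOXO target of muscle atrophy) is at 58175879 to 58214932 of chromosome 15. Its level was 13.1 and 10.97 CPM in DMSO mice, 108.0, 28.1, 20.1 and 37.4 CPM in I.P. mice, and 74.7 and 61.3 CPM in S.C. mice. Every treated mouse was above both DMSO mice. The log2 fold change was 2.0 ± 0.67 (SE, adjusted p = 0.98 in edgeR) by I.P. and 2.5 ± 0.37 (SE, adjusted p = 0.648 in edgeR) by S.C. Leaving out I.P. mouse 1 gave 1.24, and the gene was still called.

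Txnip, an arrestin that binds thioredoxin and limits glucose uptake, is at 96557957 to 96561883 of chromosome 3. Its level was 58.2 and 167.8 CPM in DMSO mice, 56.9, 92.2, 133.2 and 58.7 CPM in I.P. mice, and 50.6 and 96.1 CPM in S.C. mice. The groups overlapped, and the 2 DMSO mice had a larger SD (77.5 CPM) than either treated group. Its log2 fold change was -0.41 ± 0.48 (SE) by I.P. and -0.62 ± 0.60 (SE) by S.C., and DMSO mouse 2 decided both signs: without it the values were 0.55 and 0.33. Without S.C. mouse 2 Txnip was called lower by S.C. Errfi1, a feedback inhibitor of EGFR family receptors on chromosome 4 from 150853919 to 150868892, was at 42.3 and 37.5 CPM in DMSO mice, 60.7, 44.9, 40.3 and 40.7 CPM in I.P. mice, and 54.9 and 75.5 CPM in S.C. mice. The S.C. mice were above the DMSO mice, with a log2 fold change of 0.71 ± 0.35 (SE), and the I.P. mice overlapped them (0.22 ± 0.26, SE).

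**Figure D3:**
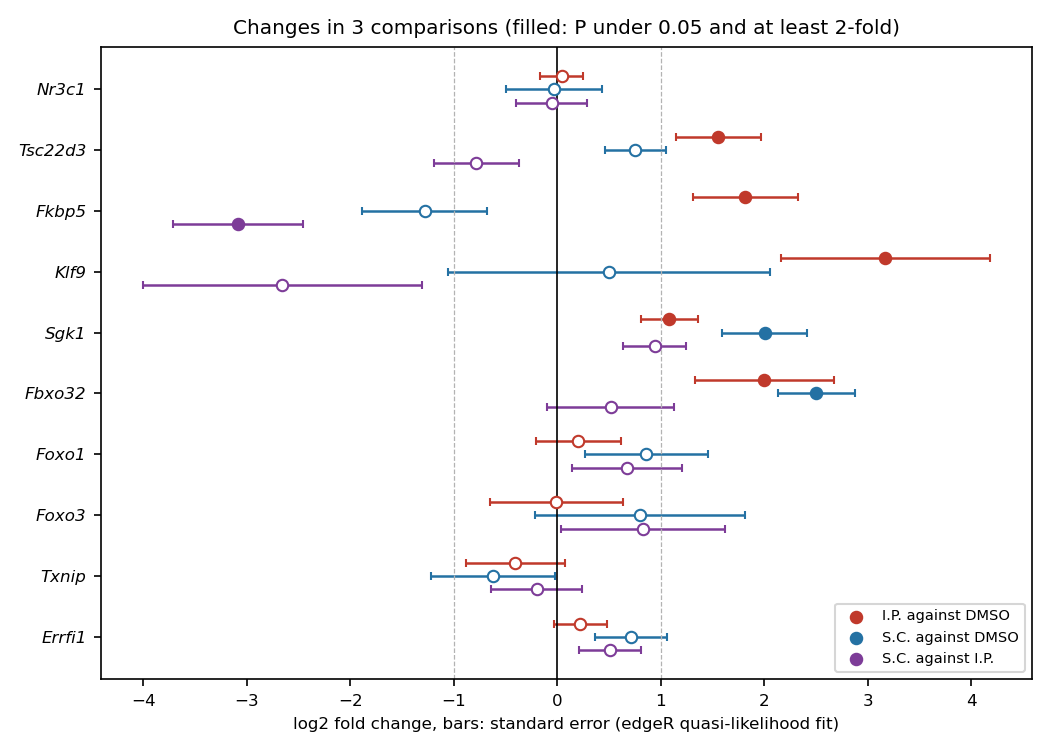
Log2 fold change of each gene in the 3 comparisons, with bars of 1 standard error from edgeR's quasi-likelihood fit; filled points passed P under 0.05 and 2-fold and dashed lines mark 2-fold. In I.P. against DMSO mice 5 points are filled, in S.C. against DMSO 2 (Sgk1, Fbxo32) and in S.C. against I.P. only Fkbp5.

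In S.C. against DMSO mice 2.29% of all genes tested were called higher and 2.77% lower, beside 2 and 0 of the 10 genes. Both S.C. mice lay above both DMSO mice for Tsc22d3, Sgk1, Fbxo32 and Errfi1 and below for Fkbp5, where 16.0% and 18.5% of all genes did so. Scaling by library size alone changed the split of all genes called from 268 higher and 323 lower to 196 and 429 and moved the median log2 fold change of all genes from 0.02 to -0.13, but Sgk1 and Fbxo32 were still called. Both thiostrepton groups were set against the same 2 DMSO mice, so the 2 comparisons are not independent of each other.

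The direct comparison of the routes asks whether S.C. and I.P. TAMs differed, without the DMSO mice. Fkbp5 was the only one of the 10 genes called, lower in both S.C. mice than in every I.P. mouse, with a log2 fold change of -3.08 ± 0.63 (SE, adjusted p = 0.268 in edgeR). Beside this 0 higher and 1 lower, 2.41% of all genes tested were called higher and 4.64% lower, and 7.46% and 11.1% had all S.C. mice above or below all I.P. mice. Fkbp5 was called in 14 of 14 other settings, with log2 fold changes between -3.70 and -2.66. Sgk1 was higher in both S.C. mice than in all I.P. mice, with a log2 fold change of 0.94 ± 0.30 (SE, adjusted p = 0.426 in edgeR), just below 2-fold. Klf9 had a log2 fold change of -2.65 ± 1.34 (SE), which did not pass the P threshold, but was called without S.C. mouse 1 (-7.00), where 1 S.C. mouse with 4 counts is left and the spread comes from the I.P. mice alone. Without single mice Sgk1 (S.C. mouse 1 or I.P. mouse 4) and Tsc22d3 (I.P. mouse 3, -1.02) were called as well. For Fbxo32 the routes overlapped (0.51, standard error 0.62, 95% interval -0.90 to 1.92), although without I.P. mouse 1 it was called higher with S.C. (1.29).

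Fkbp5 and Fbxo32 lay on opposite sides of the DMSO mice under S.C. thiostrepton. The ratio of their counts, a measure chosen after the values were seen, was 1.15 and 1.74 in DMSO mice, 0.925, 1.08, 1.87 and 1.97 in I.P. mice, and 0.0609 and 0.154 in S.C. mice.

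Other glucocorticoid targets, from a list of 35 without the 10 genes, were called in 1 direction by I.P. and in both directions by S.C. Of 32 tested in I.P. against DMSO mice, 4 were called higher (Per1, Gadd45b, Lcn2 and Slc10a6) and 0 lower, beside 1.53% and 0.468% of all genes. The list's median log2 fold change was 0.62, where the median of all genes tested was 0.02 in each of the 3 comparisons. I.P. mouse 1, which stood apart, is part of this median and of the other list medians by I.P. below. The medians without it are not given here. Per1, a clock gene with a well known receptor element, had 15 and 42 counts in DMSO mice, 361, 57, 68 and 90 in I.P. mice, and 177 and 72 in S.C. mice. Its log2 fold change was 2.34 ± 0.92 (SE) by I.P. and 2.28 ± 0.91 (SE) by S.C. Gadd45b, a stress gene on both the glucocorticoid and the FOXO list, changed by 1.83 ± 0.61 (SE) by I.P. and 1.73 ± 0.43 (SE) by S.C. on the log2 scale. Leaving out I.P. mouse 1 lowered Per1 to 1.27 by I.P., and Per1 and Gadd45b were still called, while Lcn2 and Slc10a6 lost the call, and without DMSO mouse 1 all 4 lost it.

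By S.C. 8 of 31 tested genes of the same list were called higher and 3 lower, beside 2.29% and 2.77% of all genes, with a median of 0.63. Those called higher included genes that inflammatory signals also induce, namely Nfkbia (log2 fold change 2.45 ± 0.30, SE), the endotoxin co-receptor Cd14 (2.70 ± 0.34, SE) and the phosphatase Dusp1 (2.74 ± 0.55, SE). Mfge8, which bridges apoptotic cells to phagocytes, was also higher (2.32 ± 0.39, SE). Those called lower were Cd163, Slc10a6 and Sesn1. Without DMSO mouse 2 their log2 fold changes were -1.73, -4.71 and -0.99, and none kept the call. Sesn1 was below both DMSO mice (119.1 and 123.5 CPM) in every I.P. mouse as well (22.8, 102.2, 79.0 and 61.4 CPM). Cd163, the hemoglobin scavenger receptor, had 428 and 1125 counts in DMSO mice, 2468, 849, 740 and 1161 in I.P. mice, and 176 and 84 in S.C. mice, and its log2 fold change was -3.14 ± 0.66 (SE) in S.C. against I.P. mice. The transporter gene Slc10a6 had 16 and 37 counts in DMSO mice, 164, 67, 50 and 62 in I.P. mice, and 1 and 0 in S.C. mice. Zbtb16, a zinc finger gene that glucocorticoids induce strongly, had 17 and 9 counts in DMSO mice, 57, 12, 12 and 33 in I.P. mice, and 0 and 1 in S.C. mice. In S.C. against I.P. mice 3 of 32 listed targets were called higher and 5 lower, beside 2.41% and 4.64% of all genes, and their median was -0.10.

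Among the receptor's partners and the relatives of Tsc22d3 1 gene was called, the relative Tsc22d1. For scale, 1.53% of all genes were called higher and 0.468% lower by I.P., and 2.29% and 2.77% by S.C. Between the routes these shares were 2.41% and 4.64%. Of 22 tested genes for chaperones, coactivators, hormone metabolism and relatives of Tsc22d3, 0 were called by I.P. and 1 by S.C., Tsc22d1 (log2 fold change 2.76 ± 0.43, SE), which was also the 1 gene called in S.C. against I.P. mice (2.09 ± 0.49, SE). Tsc22d1 shares the leucine zipper family of Tsc22d3 and was at 5.38 and 6.06 CPM in DMSO mice, 17.3, 6.18, 5.49 and 8.16 CPM in I.P. mice, and 37.0 and 40.7 CPM in S.C. mice. Nr3c2, the mineralocorticoid receptor, was at 0 to 0.122 CPM, under the floor in every mouse.

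**Figure D4:**
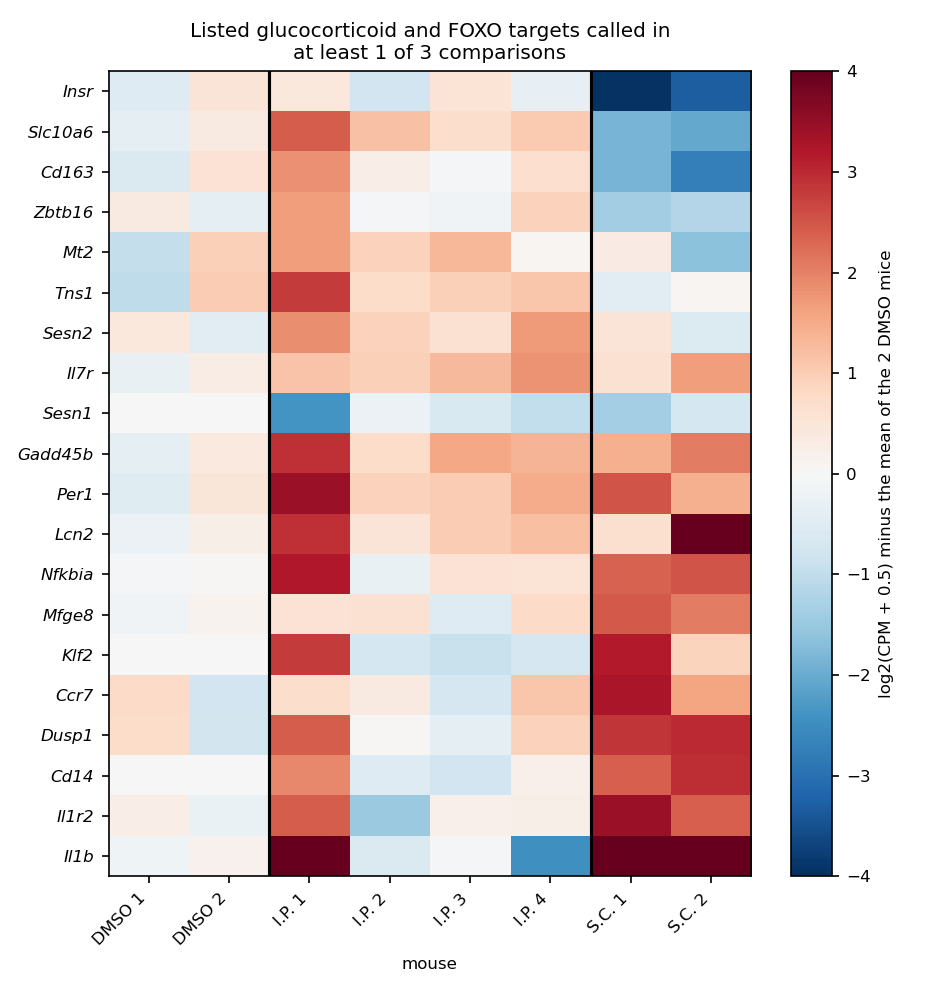
Levels of listed glucocorticoid and FOXO targets (the 10 genes and 1 gene not reported here left out) that were called in at least 1 of 3 comparisons, as log2(CPM + 0.5) minus the mean of the 2 DMSO mice, with colors limited to between -4 and 4. Columns are mice and black lines divide the groups; Slc10a6, Cd163, Zbtb16 and Insr are low in both S.C. mice, while I.P. mouse 1 is the highest of the I.P. mice for Per1, Lcn2 and Nfkbia.

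FOXO targets other than the 10 genes were called by I.P. in 3 of 49 tested, all higher, beside 1.53% of all genes, with a list median of 0.25. These were Il7r (log2 fold change 1.30 ± 0.32, SE), the interleukin 7 receptor, Sesn2 (1.33 ± 0.44, SE), a stress-induced inhibitor of mTORC1, and Gadd45b. Without DMSO mouse 2 Sesn2 was at 0.97 and lost the call. By S.C. 5 of 49 were called higher and 2 lower, beside 2.29% and 2.77% of all genes, with a median of 0.46. Il1b had the largest rise (5.29 ± 0.43, SE). Klf2 (2.48 ± 0.76, SE) and Il7r (1.21 ± 0.48, SE) were also called higher. Leaving out 1 mouse at a time, Klf2 ranged from 0.90 (without S.C. mouse 1) to 3.19 (without S.C. mouse 2). Il7r then ranged from 0.56 (without S.C. mouse 2) to 1.63 (without S.C. mouse 1). Insr, the insulin receptor gene that FOXO factors induce when insulin is low, had 71 and 184 counts in DMSO mice, 157, 66, 192 and 95 in I.P. mice, and 0 and 4 in S.C. mice. In S.C. against I.P. mice 2 of 49 were called higher and 2 lower, beside 2.41% and 4.64% of all genes, Sesn2 among the latter (log2 fold change -1.29 ± 0.51, SE). Of 28 tested regulators of FOXO (AKT, PI3K, 14-3-3 and sirtuin genes among them), 0 were called in any of the 3 comparisons.

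Among the partners of Txnip and Errfi1 1 gene was called. Of 13 tested genes of the Txnip family and its regulators, 0 were called by I.P. and 1 by S.C., Nlrp3 (log2 fold change 2.11 ± 0.55, SE), the inflammasome sensor that binds TXNIP, which was also the 1 gene called in S.C. against I.P. mice (2.07 ± 0.67, SE). Arrdc4, a related arrestin gene, was at 21.4 and 21.1 CPM in DMSO mice and at 32.8 and 44.5 CPM in S.C. mice and was not called. Genes of the EGFR system mostly did not reach the filter on low counts: 5 or 6 of 14 were tested, depending on the comparison, and 0 were called. Beside these counts, 1.53% of all genes were called higher and 0.468% lower by I.P., and 2.29% and 2.77% by S.C. Between the routes the shares were 2.41% and 4.64%.

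Of 15 tested clock output genes, Per1 was the only one called by I.P., and Per1 and Nfil3 (log2 fold change 2.02 ± 0.33, SE) were called by S.C. Of 17 tested immediate early and heat shock genes, 0 were called higher and 2 lower by I.P., with a list median of 0.89 that includes I.P. mouse 1. By S.C. 12 were called higher and 0 lower, with a median of 1.73, led by Nr4a1 (5.25 ± 0.36, SE). Beside both lists, 1.53% of all genes were called higher and 0.468% lower by I.P. By S.C. these shares were 2.29% and 2.77%. Fosb of this list was at 1.91 and 0.866 CPM in DMSO mice, 69.0, 0.551, 1.18 and 0.900 CPM in I.P. mice, and 54.6 and 28.3 CPM in S.C. mice, so that I.P. mouse 1 was high together with the S.C. mice. The same mouse was the highest of the I.P. mice for Fkbp5, Klf9 and Fbxo32, and its part in their levels is seen in the values without it: all 5 genes called by I.P. were called without I.P. mouse 1, at log2 fold changes of 1.42 for Tsc22d3, 1.46 for Fkbp5, 2.19 for Klf9, 1.11 for Sgk1 and 1.24 for Fbxo32. The heat shock genes Hspa1a and Hspa1b were lower in all 4 I.P. mice than in both DMSO mice (log2 fold changes of -1.25 ± 0.40 and -1.91 ± 0.50, SE). Without DMSO mouse 1 these were -0.83 and -1.22, and both lost the call.

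Markers of some other cells also moved with the S.C. route. The summed level of 10 neutrophil markers was 226.8 and 403.6 CPM in S.C. mice and 86.8 to 160.9 CPM in the other 6 mice, and that of 17 lymphocyte markers was 92.0 and 62.8 CPM against 16.6 to 49.4 CPM. By S.C. against DMSO 5 of 9 tested neutrophil markers and 3 of 11 lymphocyte markers were called higher and 0 lower. By I.P. 0 of 7 and 0 of 8 were called. Beside these marker counts and those below, 2.29% of all genes were called higher and 2.77% lower by S.C. By I.P. these shares were 1.53% and 0.468%. Monocyte markers summed to 21.0 to 322.7 CPM. By I.P. 0 of 6 tested were called higher and 1 lower, with a list median log2 fold change of 0.11. The 1 called lower was Ccr2, which was lower in all 4 I.P. mice (log2 fold change -2.39 ± 0.36, SE). By S.C. against DMSO 2 of 6 were called higher and 0 lower, with a list median of 1.66. Melanoma markers summed to 449.4 to 2981 CPM and were highest in S.C. mouse 1, and 3 of 7 (Sox10, Dct and Tyrp1) were called higher by S.C. against DMSO and 0 by I.P. The part of these cells in the S.C. values of Fkbp5, Sgk1, Fbxo32 and the listed targets was not tested.

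Genes with the pattern most like each of the 10 were found among 9316 genes of at least 5 CPM by the root mean square difference of log2 CPM, each gene centred on its own mean over the 8 mice. Nr3c1 was closest to Sfrs18 (0.074) and Sirpa (0.086), and Errfi1 to Spsb3 (0.067) and Rexo1 (0.085), both being genes that vary little. Tsc22d3 was closest to Rhov (0.22) and Gpr137b-ps (0.31), and Sgk1 to 0610040J01Rik (0.20) and Il1a (0.29). Fbxo32 was closest to Slc7a11 (0.32), the cystine transporter, and Inf2 (0.37), and Fkbp5 to Smcr8 (0.44) and Gdpd5 (0.53). Slc7a11 was at 7.69 and 9.24 CPM in DMSO mice, 60.9, 16.8, 10.98 and 19.7 CPM in I.P. mice, and 27.2 and 43.0 CPM in S.C. mice, above the DMSO mice in every treated mouse as Fbxo32 was. Klf9, the most variable of the 9 genes compared, was closest to Sult1a1 (0.55) and Adamtsl4 (0.88). The measure is not scaled to a gene's own spread, so distances are not compared between the 10 genes. Foxo1 was closest to 1700011J10Rik and Fam110a (0.22 each), and Txnip to Klhl2 and Hnrnph1 (0.27 each). Foxo3 was left out for its low level. The likeness rests on 8 mice, among them I.P. mouse 1, and is a description.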

How the data were processed

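RNA-seq counts of TAMs from 8 mice were used, 1 library per mouse, grouped by the treatment in their labels, in which S.C. mice are called IS. The authors deposited whole-number read counts per gene symbol without normalization. Their methods name bowtie2 and RSEM on mm10, the submitters' processing notes name TopHat2 and edgeR, and the annotation is not given in the sources used here. Coordinates and exon lengths are from GENCODE vM21 on GRCm38, the same assembly.

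The tools were edgeR 4.0.16, DESeq2 1.42.0 and limma 3.58.1 under R 4.3.3. Only the 2 groups of a comparison entered its fit, after filterByExpr (minimum count 10, minimum total 15) and TMM scaling, with edgeR's quasi-likelihood test (two-sided) and the Benjamini-Hochberg adjustment across every gene tested. Genes were called at an unadjusted P under 0.05 and at least 2-fold, as in the study. The standard error is the log2 fold change divided by the square root of F in size, and 95% intervals use the t quantile at the fit's degrees of freedom. CPM use TMM factors over all 8 libraries, and log2 CPM a prior count of 2. Totals of 14127506 to 17577466 counts make 3 counts equal 0.168 to 0.217 CPM. P values weigh a group difference against the spread between mice, estimated from 2 to 4 mice per group with information shared across genes. The procedure was tested on simulated data.

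The 10 genes, the gene lists, written from general knowledge, and the tests were chosen with earlier results of these data known. Named in the text are the 10 genes, the called genes of each list with the smallest P (up to 4 per comparison), and the 2 nearest genes of each gene of at least 5 CPM. Genes named beyond this rule, chosen after their values were seen, are Sesn1, Klf2, Nr3c2, Arrdc4, Il7r by S.C. and Fosb in I.P. mice. Some listed genes are counted in the lists but not reported here by name.

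Alternatives were no gene filter, 1 CPM in 2 libraries, RLE size factors, library size only, DESeq2, edgeR's likelihood ratio test, a replicate block, all groups in 1 fit, and leaving out each mouse. A block with crossed numbers was added after the data were seen. Deviations of same-numbered mice from their group means had correlations of -0.187 to 0.170. In a group of 2 mice the 2 deviations mirror each other, so this check cannot exclude a pairing. The labels state no pairing, and the reported fit has no block.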

Additional observations from a re-analysis of the deposited data

Results flagged for a closer look

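Fkbp5 is listed here because the 2 thiostrepton routes differed in the direct comparison, by -3.08 on the log2 scale for S.C. over I.P. ± 0.63 (SE, adjusted p = 0.268 in edgeR). Both S.C. mice were below both DMSO mice and all 4 I.P. mice were above them. Route and dose cannot be told apart, and the part of other cells was not tested. The summed neutrophil and lymphocyte markers were higher in both S.C. mice than in any other mouse. Those of monocytes and melanoma overlapped between the groups.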

How the results depend on the processing

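Tsc22d3 was called by I.P. in 14 of 14 alternatives, Sgk1 and Fbxo32 by S.C. in 13 of 13, and Fkbp5 in S.C. against I.P. mice in 14 of 14. In I.P. against DMSO mice all 3 groups in 1 fit called 160 genes, and leaving out a mouse gave 116 to 361 genes and 2 to 5 of the 10: without DMSO mouse 1 Sgk1 and Tsc22d3 were called, and without DMSO mouse 2 Fkbp5, Klf9 and Tsc22d3. In S.C. against DMSO mice leaving out a mouse gave 113 to 3432 genes and 2 to 5 of the 10. Without S.C. mouse 1 or 2 (2989 and 3432 genes) the spread rests on the DMSO mice alone, and the lone S.C. mouse is assumed to vary like them. In S.C. against I.P. mice it then rests on the I.P. mice alone (2003 and 2115 genes). In S.C. against I.P. mice leaving out a mouse gave 632 to 2115 genes and 1 to 3 of the 10, and 2 of the 10 (Fkbp5 and Klf9) were called with no gene filter, by the likelihood ratio test and with a replicate block.

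A replicate block was fitted for same-numbered mice, for which the labels state no pairing. It called 291 genes by I.P. (143 higher and 148 lower), 429 by S.C. and 389 in S.C. against I.P. mice, with 5, 2 and 2 of the 10. With crossed numbers, chosen after seeing the data, 475 genes and 2 of the 10 were called by S.C. Of the called genes of the pathway lists, leaving out 1 mouse at a time kept 2 to 8 of 8 calls by I.P., 20 to 28 of 31 by S.C. and 11 to 17 of 19 between the routes. Without a filter on low counts 364, 808 and 1173 genes were called in the 3 comparisons.

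With 2 DMSO and 2 S.C. mice, changes of low genes such as Foxo3 were not detectable at this depth.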
